A study of Mus musculus with 6 samples.

Results

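The nuclear genes of the mitochondrial respiratory chain and of ATP synthase were read from RNA sequencing of sorted mouse pituitary cells. None was called different between somatotropes and lactotropes, in a test that called 0 of 11642 genes. The genes of growth hormone and prolactin were not called either, so the result does not show equal levels. Members were all gene symbols of the deposited table that begin as the subunit families do (Ndufa, Ndufb, Ndufc, Ndufs and Ndufv with a number, Sdha to Sdhd, Uqcr, Cox4 to Cox8, and Atp5), a rule on names. The pattern found 85 of the 22869 genes with a symbol, in 94 rows, and a gene with several rows took the row with the highest mean. They were 35 genes of complex I, 4 of complex II, 8 of complex III, 20 of complex IV, 15 of ATP synthase (complex V), and 3 that match the pattern without encoding a subunit. Transcripts were measured in FPKM, a level per transcript length and per library size, in pituitary cells separated by fluorescence-activated sorting from females, 6 to 8 weeks old, of a CD1 x C57BL/6 hybrid strain. Somatotropes, which secrete growth hormone, and lactotropes, which secrete prolactin, each had 3 libraries titled biological replicates, and the labels name no treatment. Values by library are given in the order of replicates 1, 2 and 3. The labels describe neither the marker or gate of the sort nor the number of animals behind a replicate, so p-values measure only the spread between these libraries.

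Oxidative phosphorylation takes electrons from NADH through complex I and from succinate through complex II to ubiquinone, on through complex III and cytochrome c, and through complex IV to oxygen. Complexes I, III and IV pump protons across the inner mitochondrial membrane, and ATP synthase uses the proton gradient to make ATP. Most subunits are encoded in the nucleus, the central proton-pumping ones by mitochondrial DNA, and complex II is nuclear throughout. Hormone-secreting cells draw on this ATP for peptide synthesis, granule transport and exocytosis. No row was found under the symbols of the 13 subunits encoded by mitochondrial DNA, so they were not analysed here.

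The sorted cell types carried their hormones. Gh, which encodes growth hormone, lay between 19384 and 84909 FPKM in somatotropes and between 3954 and 7623 FPKM in lactotropes. Prl, which encodes prolactin, lay between 25171 and 195325 FPKM in lactotropes and between 8709 and 24481 FPKM in somatotropes. Of the 5 tested somatotrope markers, 3 had a higher mean log2 level in somatotropes and 2 in lactotropes. Of the 7 tested lactotrope markers, 6 were higher in lactotropes and 1 in somatotropes. Both replicate 1 libraries stood apart, with higher values of most genes: 83.08% of tested genes had a higher mean log2 level in replicate 1 than in replicates 2 and 3. In lactotrope 3, 14.9% of tested genes were listed at 0, and in the remaining libraries the share ran from 0.232% to 2.95%. The 14 leukocyte markers summed to 305 to 6208 FPKM in somatotropes and to 920 to 13793 FPKM in lactotropes. None was at 0 in any library, and the highest sum was in lactotrope 2. Of these markers, 14 of 14 were higher in the lactotrope of every pair, where 11.2% of all tested genes were. The stem and folliculostellate markers (10 genes) summed to 243 to 2584 FPKM in somatotropes and to 133 to 728 FPKM in lactotropes. Of the 9 tested, 8 were higher in the somatotrope of every pair, where 22.9% of all tested genes were. Erythroid markers summed to 4262 and 3534 FPKM in the replicate 3 libraries and to 11.1 to 327 FPKM in the other 4, and in somatotrope 3 the corticotrope and melanotrope markers reached 5792 FPKM (142 to 1217 FPKM elsewhere) and the gonadotrope and thyrotrope markers 1832 FPKM (140 to 838 FPKM elsewhere). The part of these cells in the results that follow was not tested. The depth behind the values was not in the table, so no counting interval can be given.

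The respiratory chain was among the more abundant gene groups in both cell types. Of the 85 genes, 80 averaged 1 FPKM or more and entered the test, and 63 of these stood at or above the 90th percentile of tested genes by mean level. The 5 genes below that mean were all tissue-specific isoforms of complex IV. The median over tested members was 61.2, 43.2 and 47.7 FPKM across the somatotropes and 62.1, 28.5 and 39.9 FPKM across the lactotropes. This was 7.61, 10.2 and 13.2 times the median of all tested genes in the somatotropes and 7.89, 7.26 and 16.1 times in lactotropes, and the 2 cell types overlapped on both scales. By complex, the median of the members' mean levels was 77.0 FPKM for complex III, 66.5 for complex V, 56.6 for complex II, 43.6 for complex I and 36.2 for complex IV. Lactotrope 2 had the lowest median of complexes I, III, IV and V, and lactotrope 3 that of complex II.

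**Figure D1:**
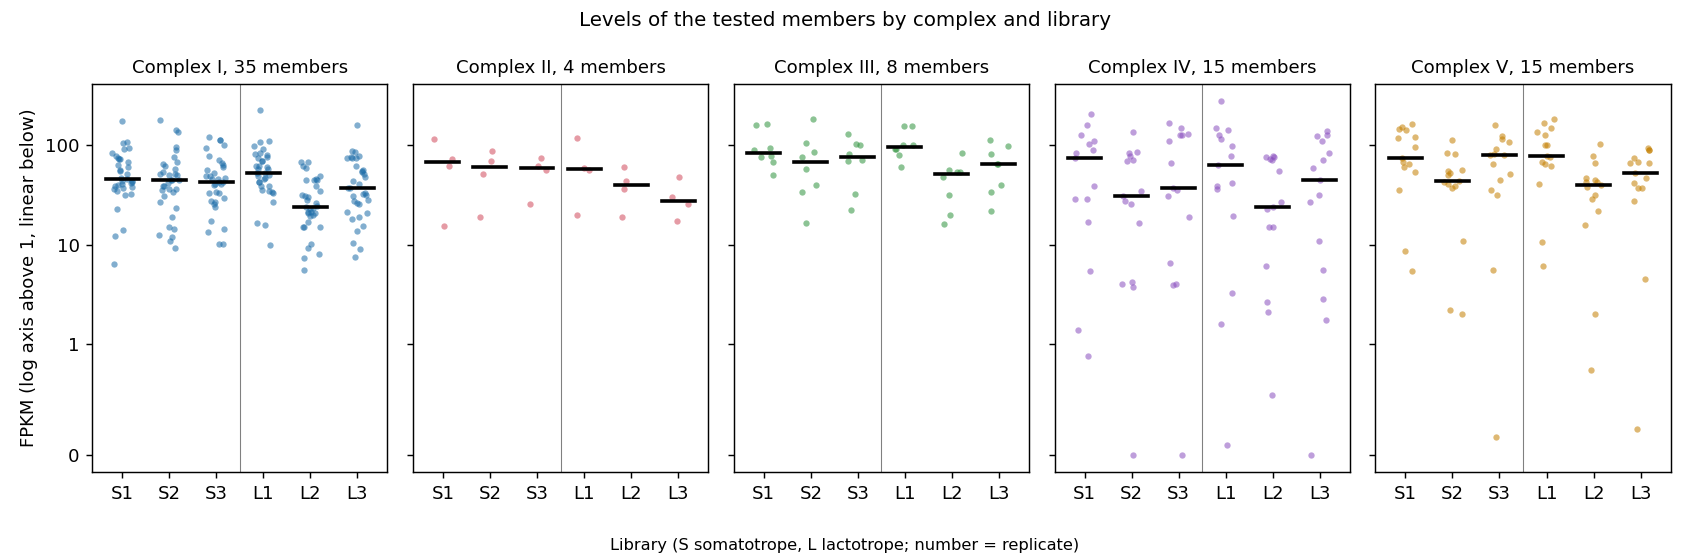
FPKM of each tested member in each library, by complex, on an axis that is logarithmic above 1 and linear below, with points spread sideways for sight and a black bar at the median over members. Medians run from 23.9 FPKM for complexes I and IV in lactotrope 2 to 96.6 FPKM for complex III in lactotrope 1. In unscaled FPKM, those of complex II (4 genes) lie higher in the 3 somatotropes (59.0 to 67.7 FPKM) than in the 3 lactotropes (27.7 to 57.7 FPKM). Median-ratio scaling divides by 1.79 in somatotrope 1 and by 0.84 in lactotrope 2, so this order depends on the scaling.

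As a share of the FPKM summed over genes, members made up 1.75%, 2.07% and 2.16% in the somatotropes and 1.39%, 1.31% and 1.37% in the lactotropes, so the groups did not overlap. The transcripts of Gh and Prl together took 14.4% to 31.4% of that sum in somatotropes and 15.4% to 55.7% in lactotropes. With Gh and Prl left out of the sum, the members' share was 2.53%, 2.42% and 3.15% in somatotropes and 2.66%, 1.54% and 3.09% in lactotropes, and the groups overlapped. In bulk samples of this kind, fewer cells of a type and less RNA per cell cannot be told apart.

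The first comparison asked which members differed between somatotropes and lactotropes. In limma's test across 11642 genes, 0 members and 0 genes in all (0%) passed an adjusted p of 0.05, and 0 members had an unadjusted p under 0.05, against 112 genes in all (0.962%). With the replicate number as a block, again 0 members and 0 genes (0%) passed. The values of Gh and Prl did not overlap between the cell types, for Prl narrowly (25171 FPKM in lactotrope 2, 24481 FPKM in somatotrope 3). Neither gene was called by either fit. A member that was not called can therefore not be taken as equal in the cell types. Under the block 2 members, Atp5s and Cox7a2l, had an unadjusted p under 0.05, both higher in somatotropes, where 7.17% of all genes did so in that direction, and 0 members did toward lactotropes, where 3.75% of all genes did. The smallest adjusted p of a member was 1.00 without the block and 0.452 with it. In every one of the 80 tested members the larger of the ranges of log2 values within a cell type was above the difference between the cell types. The same held for 98.84% of all tested genes. This range includes any step that same-numbered libraries share, so it does not measure the spread within pairs. It was the larger value also for Ndufa7 and Sdhb, whose groups did not overlap.

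The members' differences, somatotrope minus lactotrope on the log2(FPKM + 1) scale, had a median of 0.21, beside 0.18 over all tested genes. Of the 80 members, 68 (85%) had a higher mean log2 level in somatotropes and 12 in lactotropes, where 64.8% of all tested genes were higher in somatotropes. That split depended on the scaling. It was 66 to 14 after scaling to the sum without Gh and Prl, 42 to 38 after median-ratio scaling, which brought the median of all genes to 0.05 and that of the members to 0.02, and 47 to 33 after quantile normalization, where 62.9%, 54.2% and 50.3% of all genes were higher in somatotropes. By complex, the median after median-ratio scaling was 0.29 for complex II, 0.04 for complex I, 0.02 for complex V, -0.02 for complex III and -0.05 for complex IV. With no filter on low values, all 85 members had a median of 0.20, with 72 higher in somatotropes and 13 in lactotropes. Without lactotrope 2 the median over tested members was -0.04, with 36 higher in somatotropes and 44 in lactotropes. Only 2 members, Ndufa7 and Sdhb, had all 3 somatotropes above all 3 lactotropes, where 2.51% of all genes did, and 0 had all 3 lactotropes on top, where 1.15% did. The members' share for somatotropes was 2.5%, which is near the background.

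Member levels ranked more alike in same-numbered libraries than in libraries of one cell type. The order of the 80 member levels in somatotrope 1 and lactotrope 1 gave a Spearman correlation across genes of 0.98, against 0.741 between somatotropes 1 and 2 and 0.828 between lactotropes 1 and 2. It was 0.926 in pair 2 and 0.926 in pair 3, at most 0.885 between libraries of one cell type, and 0.954 between somatotrope 3 and lactotrope 2. These describe genes that share libraries, and genes are not independent replicates. The difference between the cell types varied by pair. In pair 1, 18 of 80 members were higher in the somatotrope (50.3% of all genes were), in pair 2 it was 66 of 80 (56.9%), and in pair 3 it was 60 of 80 (64.9%). The members' median difference was -0.12, 0.52 and 0.30 in pairs 1 to 3, beside 0.00, 0.12 and 0.36 over all genes.

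**Figure D2:**
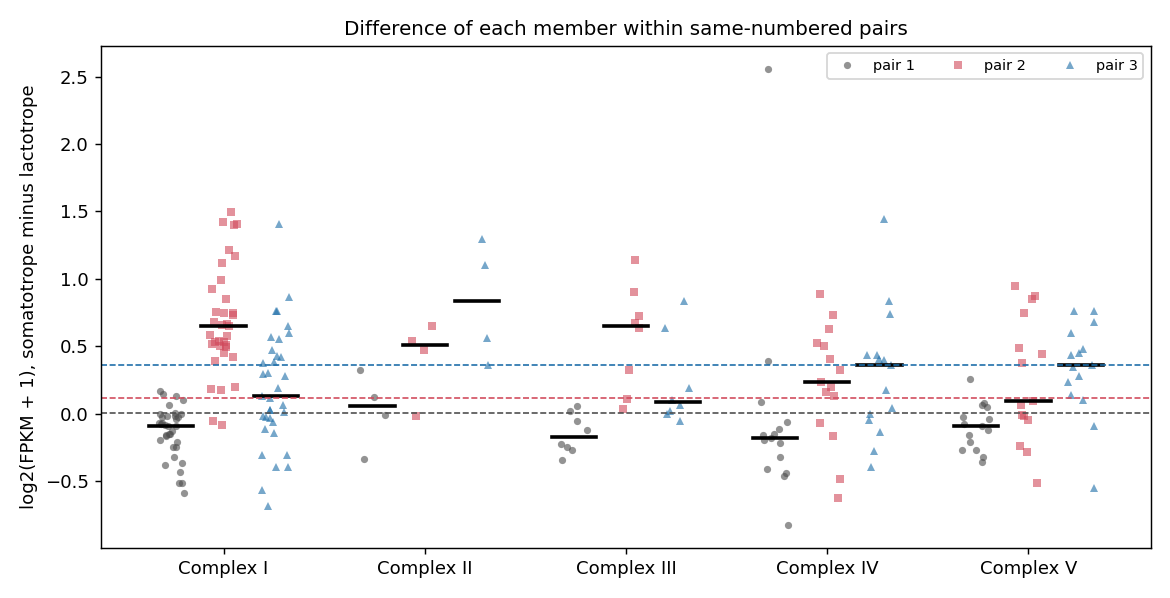
Difference in log2(FPKM + 1), somatotrope minus lactotrope, of each tested member within replicate pairs 1, 2 and 3, by complex, with black bars at the members' median and dashed lines at the median of all tested genes in the same pair. Pair 1 medians lie between -0.18 and 0.06 in the 5 complexes, and those of complexes I and III stand highest in pair 2.

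Many members were lowest in lactotrope 2. That library held the lowest value of all 6 for 50 of 80 members (62.5%), which was the case for 12.8% of all tested genes. Complex I had 28 of 35 members lowest there, complex III 7 of 8, complex V 8 of 15, complex IV 7 of 15 and complex II 0 of 4. Mitochondrial ribosomal protein genes had 30 of 76 lowest there, and cytosolic ribosomal protein genes 16 of 76. Lactotrope 2 was also the library with the highest leukocyte marker sum, at 13793 FPKM, and the part of those cells in these values was not tested.

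Higher in the somatotrope of all 3 pairs were 12 members, or 15% of the 80, where 22.9% of all genes were. Higher in the lactotrope of all 3 pairs were 2 members, Cox6b1 and Cox7c, or 2.5%, where 11.2% of all genes were. Both shares were below the background, and the 12 included Ndufa7, Sdhb, Sdhd, Uqcrb, Cox4i1, Cox7a2l, Atp5o and Cox4nb.

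Complex I, the NADH dehydrogenase, had a median difference of 0.23 over its 35 members, by pair -0.09, 0.65 and 0.13. The most abundant were Ndufa1, Ndufb8 and Ndufa7, accessory subunits with means of 147, 109 and 89.4 FPKM, and the least abundant were Ndufb4 and Ndufs3 at 8.40 and 12.1 FPKM. Accessory subunits, which surround and stabilise the catalytic core, had a median of their means of 47.6 FPKM over 28 genes, and the 7 core subunits of the NADH-oxidising and iron-sulphur arm one of 32.9 FPKM. The core subunits were not uniform: Ndufs7, which carries the last iron-sulphur cluster before ubiquinone, had a mean of 52.6 FPKM, and Ndufv1, which binds NADH, one of 24.1 FPKM. All 7 core subunits had a higher mean log2(FPKM + 1) in somatotropes, with differences of 0.10 to 0.48, where 64.8% of all tested genes were higher there. By pair, 2, 6 and 6 of the 7 were higher in the somatotrope of pairs 1, 2 and 3. Without lactotrope 2 the median difference of complex I was -0.07.

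Ndufa7 read 82.7, 143 and 99.7 FPKM across the somatotropes and 75.7, 61.3 and 74.0 FPKM across the lactotropes. The lowest somatotrope stood just above the highest lactotrope, both from replicate 1. The log2 difference was 0.59 (SE 0.53), and by limma's test the adjusted p was 1.00, or 0.501 with the replicate block. The SE here and for the genes below is that of the fit without the block, and with the block it was 0.30 for Ndufa7. In the table's mm9 coordinates the gene spans bases 33961559 to 33975258 of chromosome 17, plus strand. Ndufb8 read 107, 181 and 113 FPKM across the somatotropes and 109, 67.7 and 74.3 FPKM across the lactotropes, so the groups overlapped through lactotrope 1. Its log2 difference of 0.66 (SE 0.54) was the highest of complex I (limma adjusted p = 1.00). Ndufc1, a membrane-arm accessory subunit, had a difference of 0.57 (SE 0.56) that ran from -0.37 in pair 1 to 1.50 in pair 2. Ndufs7, a core subunit near the quinone site, was higher in the somatotrope of each pair by small steps, with a difference of 0.32 (SE 0.53). Some complex I genes followed the replicate rather than the cell type: Ndufa6 had 105 and 111 FPKM in the 2 replicate 1 libraries and 21.1 to 43.1 FPKM in the other 4.

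Complex II, succinate dehydrogenase, joins the tricarboxylic acid cycle to the chain and had the highest median difference of the 5 complexes, 0.49 over 4 genes, by pair 0.06, 0.51 and 0.83. With array weights its median was 0.46, below the 0.62 of complex I and the 0.64 of complex III. Sdha, the flavoprotein that oxidises succinate, read 116, 69.4 and 74.6 FPKM across the somatotropes and 117, 43.9 and 29.9 FPKM across the lactotropes. The replicate 1 libraries were nearly equal and the gap stood in replicates 2 and 3, with a log2 difference of 0.64 (SE 0.61), which came to 1.20 without lactotrope 1 and 0.23 without lactotrope 3. Sdhb, the iron-sulphur subunit, read 73.4, 88.6 and 61.9 FPKM across the somatotropes and 58.6, 60.7 and 47.9 FPKM across the lactotropes. All 3 somatotropes lay above all 3 lactotropes, with somatotrope 3 just above lactotrope 2, and the log2 difference was 0.41 (SE 0.52). Sdhd, which with Sdhc anchors the enzyme in the membrane and binds ubiquinone, read 62.0, 51.1 and 56.0 FPKM across the somatotropes and 56.8, 36.5 and 25.6 FPKM across the lactotropes, higher in the somatotrope of each pair with a log2 difference of 0.57 (SE 0.54), which came to 0.86 without lactotrope 1 and 0.30 without lactotrope 3. Sdhc was at 15.5, 18.9 and 25.8 FPKM against 19.9, 19.1 and 17.2 FPKM, with a difference of 0.07 (SE 0.54) that was -0.12 after median-ratio scaling. By limma's test the adjusted p was 1.00 for each of the 4, and with the replicate block it was 0.484 for Sdha, 0.575 for Sdhb, 0.947 for Sdhc and 0.505 for Sdhd.

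**Figure D3:**
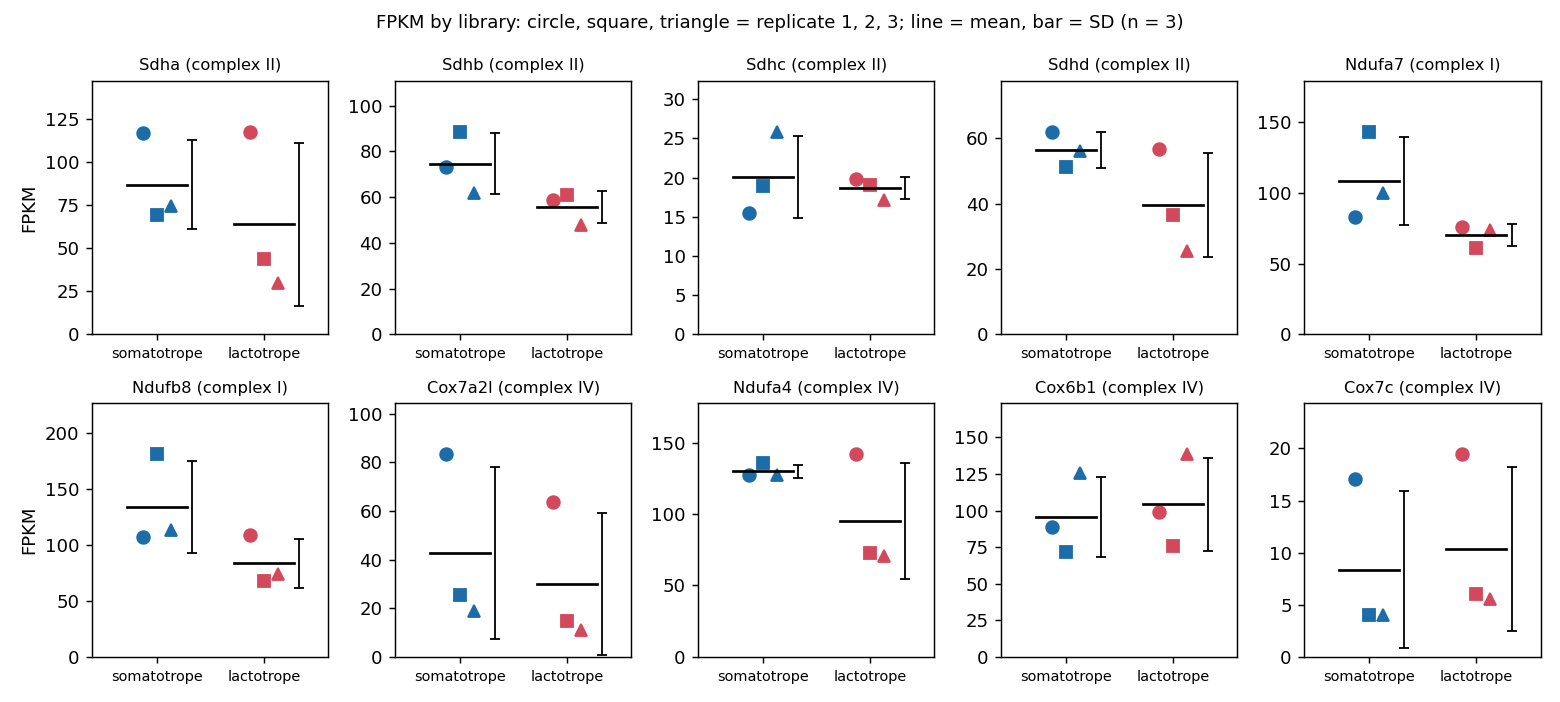
FPKM by library of the 4 complex II genes, of Ndufa7 and Ndufb8 of complex I, and of Cox7a2l, Ndufa4, Cox6b1 and Cox7c of complex IV, with 1 symbol per replicate number, a line at the mean and a bar of 1 SD (n = 3). Sdhb and Ndufa7 have all 3 somatotropes above all 3 lactotropes, and in the other 8 genes the cell types overlap.

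Promoter windows of 300 bases (250 before and 50 after the RefSeq transcription start, GRCm38.p6) were found for 69 of the 85 members and searched on both strands for motifs of factors known as background to act on respiratory genes. These were GCGCANGCGC of NRF1, CCGGAAGT of GABP, AAGATGGC of YY1 and TCAAGGTCA of the oestrogen-related receptors. None of these strings contains another. The NRF1 motif was in 17 of 69 members (24.64%), in 12.05% of 9051 tested genes with a window and in 5.19% of all 27025 genes with one. The YY1 motif was in 11 members (15.94%), in 5.54% of tested genes and in 3.19% of all genes. The GABP motif was in 5 members (7.25%) and in 9.6% of tested genes and 4.31% of all genes. The oestrogen-related receptor motif was in 2 members (2.9%), Sdhd and Atp5g3, in 0.34% of tested genes and in 0.47% of all genes. The windows of Sdha (chr13:74350191-74350490) and Sdhd (chr9:50603800-50604099), both on the minus strand, are printed because complex II had the highest median difference and Sdha holds 3 NRF1 matches, 98, 55 and 10 bases before the start. Capitals mark motif matches, of NRF1 in both windows and of the oestrogen-related receptors near the end of the Sdhd window.
Sdha: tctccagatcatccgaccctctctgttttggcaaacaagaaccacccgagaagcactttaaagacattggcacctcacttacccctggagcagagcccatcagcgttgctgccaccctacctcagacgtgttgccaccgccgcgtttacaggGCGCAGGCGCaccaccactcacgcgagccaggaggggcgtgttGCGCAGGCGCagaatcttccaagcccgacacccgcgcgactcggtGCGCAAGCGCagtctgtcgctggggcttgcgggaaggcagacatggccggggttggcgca
Sdhd: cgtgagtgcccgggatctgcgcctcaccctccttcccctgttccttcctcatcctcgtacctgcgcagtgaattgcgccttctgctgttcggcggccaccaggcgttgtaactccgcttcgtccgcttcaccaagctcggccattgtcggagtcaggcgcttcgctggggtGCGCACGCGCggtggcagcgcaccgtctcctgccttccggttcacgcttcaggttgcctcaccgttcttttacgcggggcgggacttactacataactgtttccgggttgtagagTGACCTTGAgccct
A match says only that these letters are in the window, and binding was not measured.

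Complex III, which passes electrons from ubiquinol to cytochrome c, had a median difference of 0.18 over 8 genes, by pair -0.17, 0.65 and 0.09, which was -0.05 without somatotrope 1 and -0.19 without lactotrope 2. Its small subunits were the most abundant, Uqcr11 at a mean of 118 FPKM, Uqcrb at 106 FPKM and Uqcrh at 86.9 FPKM, and the core protein gene Uqcrc2 the least at 31.1 FPKM. Uqcrfs1, the Rieske iron-sulphur subunit, read 89.3, 33.6 and 32.7 FPKM across the somatotropes and 92.8, 20.0 and 34.0 FPKM across the lactotropes. Replicate 1 was highest in both cell types, and the cell types overlapped. Uqcrh, the hinge subunit that contacts cytochrome c1, also stood highest in replicate 1, at 159, 39.8 and 69.3 FPKM across the somatotropes and 157, 31.5 and 64.5 FPKM across the lactotropes. The cell types stood close together in each pair, while the replicates spanned 5.04-fold. Uqcrb and Uqcrh were higher in the somatotrope of all 3 pairs by 0.08 (SE 0.61) and 0.15 (SE 0.70), differences that were -0.12 and -0.05 after median-ratio scaling. Uqcrc1, the other core protein gene, had the highest difference of complex III at 0.46 (SE 0.56), and Uqcr11 followed at 0.40 (SE 0.55) (limma adjusted p = 1.00 for both).

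Complex IV, cytochrome c oxidase, had a median difference of 0.14 over 15 tested genes, by pair -0.18, 0.24 and 0.36, which was below 0 without somatotrope 1 (-0.0045), somatotrope 3 (-0.02) or lactotrope 2 (-0.07). The ubiquitous subunits were led by Cox6a1 at a mean of 149 FPKM, Cox4i1 at 122 FPKM and Cox8a at 114 FPKM. Ndufa4, first described in complex I and now known as a subunit of complex IV, read 127, 135 and 127 FPKM across the somatotropes and 142, 72.6 and 70.9 FPKM across the lactotropes. Its somatotrope values were close together, lactotrope 1 lay above them and lactotropes 2 and 3 below, and the log2 difference was 0.52 (SE 0.55). Cox4i1, the regulatory subunit that binds ATP, was higher in the somatotrope of all 3 pairs with a difference of 0.23 (SE 0.56). Cox6b1, which lies where the units of the oxidase dimer meet, read 88.9, 71.9 and 126 FPKM across the somatotropes and 98.7, 75.5 and 139 FPKM across the lactotropes, higher in the lactotrope of each pair with a log2 difference of -0.12 (SE 0.55). Cox7c read 17.1, 4.036 and 3.999 FPKM across the somatotropes and 19.5, 6.06 and 5.59 FPKM across the lactotropes, again higher in the lactotrope of each pair, with a difference of -0.36 (SE 0.74). Replicate 1 stood above all other libraries of Cox7c, and by limma's test the adjusted p was 1.00 for these genes.

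Cox7a2l, a relative of the Cox7a subunits that links complexes III and IV in supercomplexes, had the largest step between replicate 1 and the mean of replicates 2 and 3 of all tested members, 2.05 on the log2 scale. It read 83.4, 25.6 and 19.0 FPKM across the somatotropes and 63.5, 14.96 and 10.99 FPKM across the lactotropes. Each somatotrope was above the lactotrope of its number, while the replicates spanned 7.59-fold. The log2 difference was 0.62 (SE 0.75, limma adjusted p = 1.00), with the replicate block the adjusted p was 0.455, and without somatotrope 1 the difference was -0.0045. In mm9 the gene lies on chromosome 17 from 83901257 to 83913673 (minus strand), and of its 2 rows the higher was used. Cox7a2, the ubiquitous Cox7a subunit, had 27.2 to 78.3 FPKM, so Cox7a2l made up 52.7%, 42.7% and 22.2% of the pair in somatotropes 1 to 3 and 44.8%, 35.5% and 15.7% in the lactotropes. Each share was higher in the somatotrope of its number.

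Tissue-specific isoforms of complex IV, which replace ubiquitous subunits in heart, skeletal muscle, lung or testis, were low in all 6 libraries. Cox4i2, the lung and hypoxia-responsive form of Cox4i1, was between a listed 0 and 0.471 FPKM, beside 76.5 to 160 FPKM of Cox4i1. The muscle forms Cox8b and Cox7a1 reached 1.59 and 3.94 FPKM, and the testis forms Cox7b2 and Cox8c reached 0.313 and 0.215 FPKM, where the ubiquitous Cox7b lay between 15.1 and 42.0 FPKM. Ndufa4l2, a hypoxia-responsive relative of Ndufa4, reached 1.21 FPKM. Cox6a2, the muscle form of Cox6a1, was at 5.396 FPKM in somatotrope 1, listed at 0 in somatotropes 2 and 3 and lactotrope 3, and at 0.086 and 0.540 FPKM in lactotropes 1 and 2, so 1 library set its mean. The 12 striated muscle markers summed to 0.724 to 5.14 FPKM per library, and the 9 endothelial markers to a listed 0 to 4.66 FPKM. Cox6b2, the testis form of Cox6b1, was the most abundant isoform of this kind by mean, at 0.890, 4.25 and 6.48 FPKM across the somatotropes and 1.599, 2.66 and 1.75 FPKM across the lactotropes, with a log2 difference of 0.50 (SE 0.75).

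**Figure D4:**
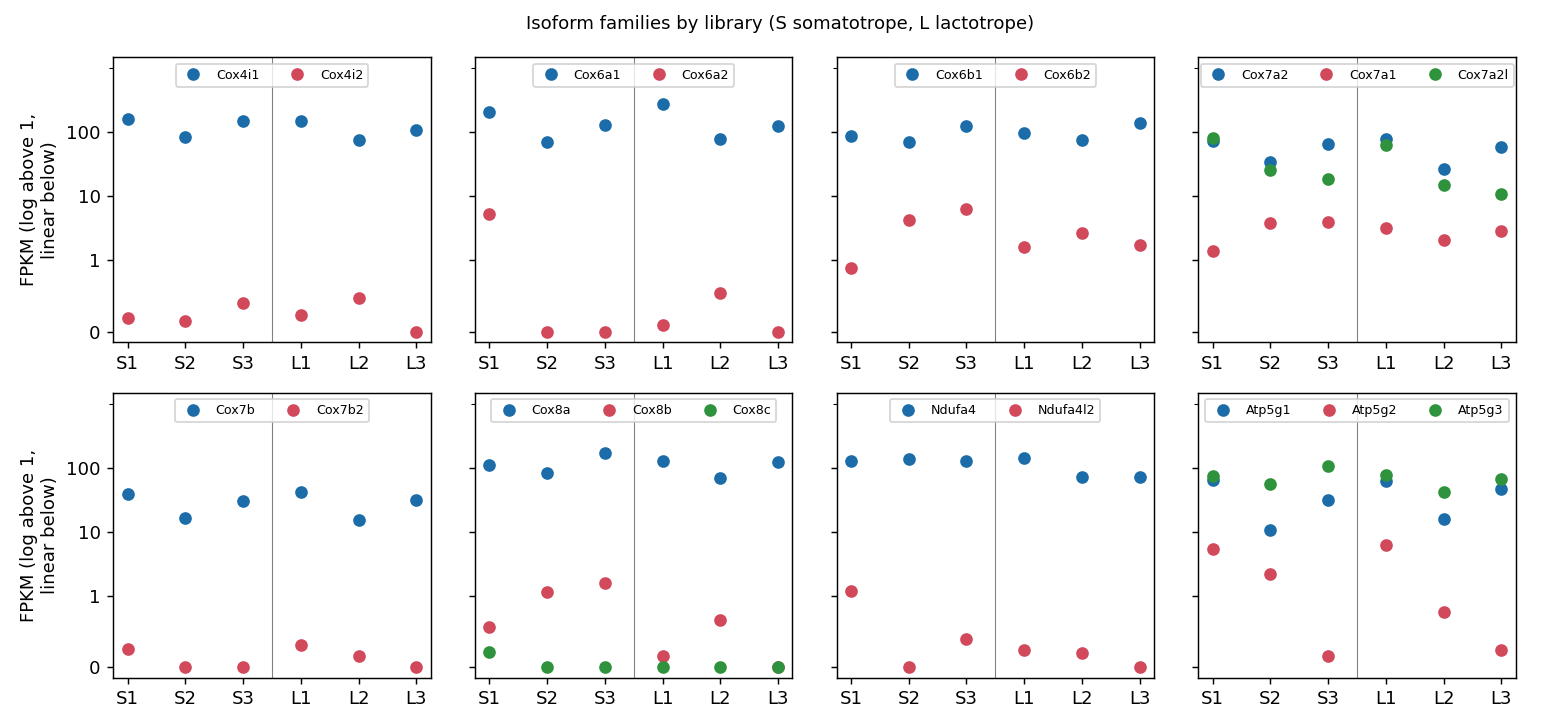
FPKM of the isoforms of 8 subunit families in the 3 somatotrope (S) and 3 lactotrope (L) libraries, on an axis that is logarithmic above 1 and linear below. In the 6 families of a ubiquitous subunit without Cox7a2 or the c ring, the blue ubiquitous gene lies above its relatives in every library, and in the last panel Atp5g3 is the highest and Atp5g2 the lowest of the c ring genes in every library.

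ATP synthase had a median difference of 0.20 over 15 genes, by pair -0.09, 0.09 and 0.36, which was -0.10 without somatotrope 1 and -0.05 without lactotrope 2. Its catalytic head had means of 129 FPKM for Atp5b and 110 FPKM for Atp5a1, the beta and alpha subunits that form the catalytic ring, and 62.4 to 83.0 FPKM for the 3 central stalk genes Atp5c1, Atp5d and Atp5e. Atp5b read 151, 83.8 and 159 FPKM across the somatotropes and 183, 102 and 93.6 FPKM across the lactotropes, higher in the lactotrope of pairs 1 and 2 and in the somatotrope of pair 3. The 4 peripheral stalk genes, which hold the head still against the rotor, had the highest median difference of the enzyme's parts, 0.35. Of these, Atp5j had the highest mean at 120 FPKM and a difference of 0.40 (SE 0.57), and Atp5o, the subunit that joins the stalk to the head, had 67.7, 57.0 and 51.1 FPKM in somatotropes against 65.5, 29.0 and 37.6 FPKM in lactotropes. Atp5o was higher in the somatotrope of each pair, by 0.48 (SE 0.54), and so was Atp5f1, by 0.28 (SE 0.61), a difference that was -0.15 without somatotrope 1 (limma adjusted p = 1.00 for the 3 genes). The lowest members were Atp5g2 and Atp5l, at means of 2.48 and 5.59 FPKM.

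The c ring, the rotor that protons turn, is built from 1 mature protein that 3 genes encode with different import sequences, and these genes had unequal levels. Atp5g1 and Atp5g2 each have near-identical copies in other genes, so their levels are uncertain. Atp5g3 read 74.4, 55.1 and 109 FPKM across the somatotropes and 78.8, 42.3 and 67.4 FPKM across the lactotropes. Atp5g1 read 65.4, 10.9 and 31.8 FPKM across the somatotropes and 62.4, 16.0 and 47.2 FPKM across the lactotropes, and Atp5g2 between 0.155 and 6.14 FPKM in the 6 libraries. Atp5g3 was the highest of the 3 in every library. Atp5g1 made up 46.8%, 16.5% and 22.7% of the sum of Atp5g1 and Atp5g3 in somatotropes and 44.2%, 27.4% and 41.2% in lactotropes. The log2 difference of Atp5g1 was -0.33 (SE 0.72, limma adjusted p = 1.00), and it was 0.32 without somatotrope 2 and 0.05 without lactotrope 1.

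Ratios of an isoform to its relative were compared for the 6 pairs in which the lesser gene had a mean of at least 1 FPKM, a measure within 1 library. The log2 ratio of Atp5g1 to Atp5g3, each as FPKM + 1, was -0.18, -2.24 and -1.74 for the somatotropes and -0.33, -1.35 and -0.50 for the lactotropes. The means differed by -0.66, with SDs of 1.07 and 0.55 (n = 3 each). A two-sided exact permutation test gave p = 0.4, adjusted over the 6 ratios p = 0.9, where 3 against 3 libraries cannot go below 0.1. For Cox6b2 over Cox6b1 the difference was 0.62 (exact permutation p = 0.4), for Cox7a2l over Cox7a2 0.48 (exact permutation p = 0.6), for Cox6a2 over Cox6a1 0.82 (exact permutation p = 0.5), for Cox7a1 over Cox7a2 -0.09 (exact permutation p = 1.0) and for Atp5g2 over Atp5g3 -0.12 (exact permutation p = 0.9). Each of the 6 differences was smaller than the larger of its 2 SDs. Within same-numbered pairs, the ratio of Cox7a2l to Cox7a2 was higher in the somatotrope by 0.45, 0.41 and 0.56 in pairs 1 to 3, a mean of 0.48 with an SD of 0.079 (3 of 3 pairs). A two-sided exact sign-flip permutation test, chosen after seeing the data, gave p = 0.25, the smallest that 3 pairs allow, and adjusted over the 6 ratios p = 1.0. The other 5 ratios did not keep one direction over the pairs.

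The promoter windows of the 3 c ring genes are printed because the genes encode the same mature protein at different levels. All are on the minus strand of GRCm38.p6, at chr11:96075582-96075881 for Atp5g1, chr15:102670998-102671297 for Atp5g2 and chr2:73911277-73911576 for Atp5g3. Capitals mark the NRF1 matches of Atp5g2 and Atp5g3 and, earlier in the window of Atp5g3, the oestrogen-related receptor match.
Atp5g1: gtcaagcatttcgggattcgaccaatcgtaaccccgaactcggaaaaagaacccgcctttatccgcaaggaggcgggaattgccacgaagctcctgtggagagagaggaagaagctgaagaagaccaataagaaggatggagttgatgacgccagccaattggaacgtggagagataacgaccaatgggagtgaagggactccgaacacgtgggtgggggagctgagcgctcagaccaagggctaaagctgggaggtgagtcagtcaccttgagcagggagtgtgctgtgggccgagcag
Atp5g2: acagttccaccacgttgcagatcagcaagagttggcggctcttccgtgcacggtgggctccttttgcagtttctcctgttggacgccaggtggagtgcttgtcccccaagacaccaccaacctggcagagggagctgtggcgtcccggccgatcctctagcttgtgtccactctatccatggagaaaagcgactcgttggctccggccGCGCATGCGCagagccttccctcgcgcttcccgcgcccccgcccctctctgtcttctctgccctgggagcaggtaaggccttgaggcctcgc
Atp5g3: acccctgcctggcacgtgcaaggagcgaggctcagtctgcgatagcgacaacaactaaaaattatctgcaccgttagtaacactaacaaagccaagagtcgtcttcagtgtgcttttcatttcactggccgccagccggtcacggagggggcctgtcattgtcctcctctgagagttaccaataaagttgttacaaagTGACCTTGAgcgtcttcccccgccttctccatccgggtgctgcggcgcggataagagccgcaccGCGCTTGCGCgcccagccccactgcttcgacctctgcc
None of the 4 motifs searched was in the window of Atp5g1, and the least abundant of the genes, Atp5g2, held 1 NRF1 match, as did the most abundant, Atp5g3.

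The 3 genes that match the pattern without encoding a subunit were low. Atp5s, listed in RefSeq as Dmac2l, read 14.3, 9.44 and 8.46 FPKM across the somatotropes and 14.6, 4.96 and a listed 0 FPKM across the lactotropes. Its log2 difference of 1.34 (SE 0.89) was the highest of the tested members, rested on the listed 0 and was 0.25 without lactotrope 3 (limma adjusted p = 1.00, or 0.452 with the replicate block). Cox4nb, listed in RefSeq as Emc8 and encoding a subunit of a complex of the endoplasmic reticulum membrane, was at 12.05, 9.60 and 3.32 FPKM against 9.93, 5.25 and 1.55 FPKM, with a difference of 0.59 (SE 0.75). It shares a start region with Cox4i1 on chromosome 8: in mm9 the Cox4nb row ends at 123192012 on the minus strand and the Cox4i1 row begins at 123192190 on the plus strand, 178 bases away. The means of these neighbours were 6.95 and 122 FPKM. Atp5sl, listed in RefSeq as Dmac2, an assembly factor of complex I, lay between 1.76 and 3.96 FPKM.

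Levels varied widely between subunits of the same complex. Some small subunits were listed far below their partners, such as Cox7c at a mean of 9.37 FPKM beside Cox6c at 91.0 FPKM, and Atp5l at 5.59 FPKM beside Atp5j2 at 73.1 FPKM. Genes of this kind often have processed pseudogenes. In the GENCODE M21 transcripts (GRCm38), 14 of the 80 tested members had at least 1 other gene with 95% identity over 50% of the transcript, and their median mean level was 34.0 FPKM, against 54.6 FPKM for the other 66. Atp5l had 9 such genes, Atp5h and Uqcrb 3 each, Atp5g2 2, and Atp5c1, Atp5g1, Atp5k, Atp5o, Cox7c, Ndufa12, Ndufb11, Ndufs3, Ndufs5 and Ndufs6 1 each, while Atp5h and Uqcrb stood at 49.8 and 106 FPKM. GENCODE listed 8 of the 9 matches of Atp5l as pseudogenes, and the 1 match of Cox7c was not listed as one. Across these 80 genes the Spearman correlation of the mean level was -0.23 with the number of copies and -0.22 with the GENCODE transcript length. The levels of these 14 genes are uncertain, since the labels do not say how shared reads were counted, and the part of the copies in their levels was not tested.

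Other mitochondrial gene lists were set beside the members. The 44 assembly factors, which build the complexes, had a median difference of 0.43, with 37 higher in somatotropes and 7 in lactotropes (64.8% of all genes were higher in somatotropes), and those with the largest differences were Ndufaf2 at 1.39 (SE 0.83) and Atpaf2 at 1.36 (SE 0.84), both listed at 0 in lactotrope 3, and Uqcc, listed in RefSeq as Uqcc1, at 1.25 (SE 0.67). The 76 mitochondrial ribosomal protein genes had a median of 0.28 and the 14 tricarboxylic acid cycle genes one of 0.41, with Dld and Cs, which encode a dehydrogenase subunit and citrate synthase, at 0.73 (SE 0.77) and 0.72 (SE 0.73). In pairs 1 to 3 the median of the assembly factors was 0.01, 0.44 and 0.82, and 7 of them were listed at 0 in lactotrope 3. That of the mitochondrial ribosomal protein genes was -0.0037, 0.43 and 0.41, and that of the cycle genes -0.09, 0.35 and 0.78. The 76 cytosolic ribosomal protein genes had a median of -0.13, by pair 0.08, -0.36 and -0.10, and 55 of them had the higher mean in lactotropes. In pairs 1 to 3, 48, 19 and 32 of the 76 were higher in the somatotrope, beside 50.3%, 56.9% and 64.9% of all genes. The 13 tested regulators of mitochondrial gene expression had a median of 0.04, and Nrf1, the factor whose motif was searched above, read 8.45, 3.89 and 1.63 FPKM across the somatotropes and 5.93, 3.34 and 0.192 FPKM across the lactotropes. Of the subunits outside the pattern, Cyc1, the cytochrome of complex III, was at 36.5 to 52.9 FPKM in somatotropes and 30.8 to 43.6 FPKM in lactotropes. Cycs, cytochrome c, was listed at 0.928 to 2.69 FPKM in the 6 libraries. Near-identical copies were sought for members only. The part of shared reads in the levels of Cycs and of the ribosomal protein genes was therefore not tested. In limma's test 0 genes of these lists passed an adjusted p of 0.05 with or without the block, and without the block 0 had an unadjusted p under 0.05. With the block, 4 assembly factors and 4 mitochondrial ribosomal protein genes had an unadjusted p under 0.05, each higher in somatotropes, beside 7.17% of all genes, and so did 1 cytosolic ribosomal protein gene, higher in lactotropes, beside 3.75% of all genes.

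**Figure D5:**
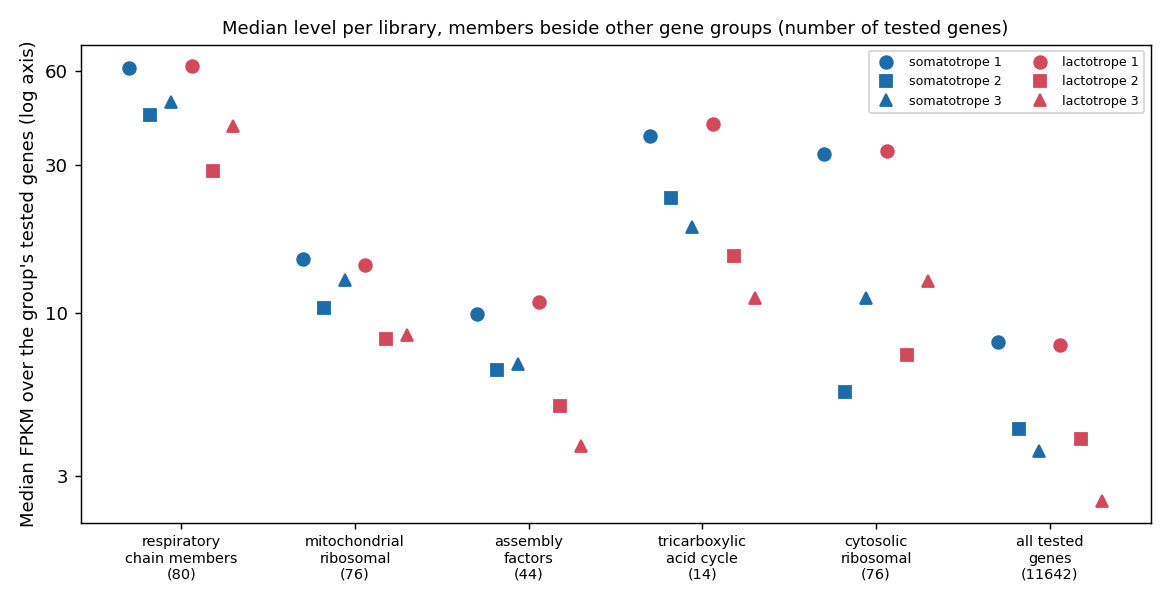
Median FPKM over the tested genes of 6 groups in each library, on a log axis, with blue for somatotropes, red for lactotropes and 1 symbol per replicate number. Respiratory chain members have the highest listed medians of the 6 groups in every library. Their spread between replicates is narrower than that of the cytosolic ribosomal protein genes. Near-identical copies were sought for members only, so the part of shared reads in the levels of the other groups was not tested.

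Replicate 1 also stood above the others for most members. The mean log2 level in replicate 1 was above that in replicates 2 and 3 by a median of 0.52 over members, 0.69 over mitochondrial ribosomal protein genes, 1.00 over all tested genes and 2.04 over the 76 cytosolic ribosomal protein genes. Replicate 1 was the highest of both cell types for 41 of 80 members (51.25%), for 63.13% of all tested genes and for 72 of the 76 cytosolic ribosomal protein genes. Among the members, Ndufs7 went the other way, with 43.3 and 39.1 FPKM in the replicate 1 libraries and 46.2 to 70.9 FPKM in the other 4. The steadiest member was Cox5b, a subunit of complex IV, at 28.7, 27.5 and 35.8 FPKM across the somatotropes and 36.1, 23.9 and 27.0 FPKM across the lactotropes, a 1.51-fold range over the 6 libraries. In all, 18 of 80 members stayed within a 2-fold range.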

How the data were processed

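RNA of FACS-sorted somatotropes and lactotropes was isolated in Trizol LS and amplified with the NuGen Ovation V2 kit, per the labels' protocols, and the submitters' processing notes name bcl2fastq 2.17.1.14, TopHat, edgeR and build mm9. The values are FPKM as the authors deposited them, in 30399 rows by transcript. For read counting and depth, the method and values are not given in the sources used here. Rows lacking a symbol (889) were left out, and 1 row per symbol was used. Values were tested as log2(FPKM + 1), a scale that understates the change of low genes, for the 11642 genes averaging 1 FPKM or more, with limma 3.58.1 in R 4.3.3 (intensity trend, Benjamini-Hochberg adjustment over all genes, 0.05). The code was tested on simulated data. Deviations from the group mean correlated between same-numbered libraries (0.763, 0.613 and 0.341 in pairs 1, 2 and 3), so values with a replicate block stand beside the results. SEs are from the fit without the block, also for genes compared by pair. With the block they were smaller, such as 0.29 and not 0.54 for both Atp5o and Sdhd. The pairing comes from the numbers in the titles and this check. Copies were sought with blastn 2.17.0 and promoter windows are from RefSeq.

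The members and gene lists were chosen with earlier results of these data known. Genes named are, per complex, the 3 most and 2 least abundant, those with the smallest p, isoform families, genes listed at 0 and genes whose groups did not overlap. Genes higher in one cell type in all pairs, and Ndufa6, Uqcrfs1, Cox5b, Ndufs7, Cox6c, Atp5j2, Atp5h and Ndufv1 were chosen after their values were seen. Alternatives were other pseudocounts, filters, scalings, variance settings, library weights, summed rows, and each library left out. 1 member that the rule names is not reported here.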

Additional observations from a re-analysis of the deposited data

How the results depend on the processing

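No member passed limma's test under any of the 19 alternatives. With array weights the count over all genes was 9, the median over members 0.55, and the medians of complexes I, II, III and IV were 0.62, 0.46, 0.64 and 0.44, the only alternative in which complex II was not the highest, with lactotrope 2 weighted 6.24 against 0.29 and 0.49 for lactotropes 1 and 3, and Cox6b1 and Atp5g1 were 0.16 and 0.0319. With 1 library left out, the count over all genes ran from 0 to 3 (3 without somatotrope 1), the median over members from -0.04 to 0.48, and those of complexes I to V from -0.07 to 0.49, 0.26 to 0.65, -0.19 to 0.50, -0.07 to 0.34 and -0.10 to 0.52. Signs turned with 1 library left out for Uqcrb (-0.32 to 0.46), Uqcrh (-0.40 to 0.74), Cox7a2l (-0.0045 to 1.36), Atp5f1 (-0.15 to 0.72), Cox6b1 (-0.33 to 0.11), Atp5g1 (-0.92 to 0.32), Sdhc (-0.12 to 0.23), Cox7c (-0.97 to 0.17) and Cox4i1 (-0.0193 to 0.51). Median-ratio scaling, alone or with the replicate block, gave -0.12 for Sdhc, -0.12 for Uqcrb and -0.048 for Uqcrh, and quantile normalization gave -0.14 for Sdhc and -0.0749 for Uqcrb. With the replicate block 0 members were called, the median over members stayed 0.21, and no call changed. With replicates 2 and 3 only, a setting chosen like the scaled block after seeing the data, the median over members was 0.36. The cause of these changes was not tested. The unknown depth limits the low genes.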
